A study of Mus musculus with 9 samples.

Results

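The 10 genes described here, all known to be induced by glucocorticoids, were followed in mouse brain tissue after a peripheral immune challenge. They are Fkbp5, Sgk1, Errfi1, Ddit4, Tsc22d3, Klf9, Zbtb16, Hif3a, Plin4 and Cdkn1a, chosen by name as established targets of the glucocorticoid receptor. All 10 were found by name among the 21899 genes of the count table, and all 10 passed the filter on low counts that left 14837 genes for testing. The tissue was the paraventricular thalamus (PVT), which lies along the midline and is involved in arousal, dissected from wild-type mice that had received either phosphate-buffered saline (PBS) or lipopolysaccharide (LPS, a component of the outer membrane of Gram-negative bacteria) by injection into the peritoneal cavity. RNA was sequenced in 3 libraries from each of 3 groups: the PBS control collected 1 day after injection, LPS collected 1 day after injection, and LPS collected 7 days after injection. A PBS group of 7 days was not analysed here, so wherever the 7 day libraries are set against PBS, time and treatment cannot be told apart. No strain, age, sex or LPS dose is given in the labels.

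Glucocorticoids (corticosterone in mice) are released from the adrenal gland under the control of the hypothalamus and pituitary, and peripheral LPS is a classic stimulus for their release. The hormone enters cells and binds the glucocorticoid receptor, which is held in the cytoplasm by chaperones; the bound receptor moves to the nucleus and activates genes near glucocorticoid response elements, inverted repeats of a short half-site around a spacer. The products of these genes feed back on the receptor itself, on growth and ion transport signalling, on transcription, on fat storage and on the cell cycle. Circulating hormone was not analysed here, and several of the genes are also known to respond to other signals, such as p53 for Cdkn1a and energy or hypoxic stress for Ddit4.

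Libraries held 13211422 to 17210526 gene counts, and counts of single members ranged from 44 to 7287 per library. The unit of level is CPM, counts in proportion to the library total after adjustment by TMM factors (a normalisation that assumes most genes do not differ), and a gene was called changed when its edgeR quasi-likelihood p, adjusted over all tested genes, was under 0.05. Whether the 3 libraries of a group stem from different mice is not stated, so the p-values describe the spread among these libraries, some of which may be technical. The groups also differed in ways that treatment and day do not name. Summed transcripts of 4 Y-linked genes lay at 0 to 0.0588 CPM in PBS (Ddx3y, Eif2s3y and Uty were without a count), at 81.5 to 85.2 CPM in LPS at 1 day and at 90.5 to 102 CPM in LPS at 7 days. PBS is therefore set apart from both LPS groups by Y-linked transcripts, which cannot be told apart from treatment, whereas LPS at 7 days and LPS at 1 day both contained them. All 9 markers of PVT and thalamic neurons were detected in every group, with summed levels of 834 to 840, 649 to 684 and 707 to 729 CPM in the same order of groups. These markers did not move alike. At 7 days against PBS 6 were called lower, 2 did not pass and Calb2 was higher (log2 0.72). Drd2 had the lowest values, at -1.03 at 1 day and -1.08 at 7 days against PBS on the log2 scale. The list medians were -0.42 and -0.46, and those of 7 striatal markers were -0.76 and -1.31. Scaling to this sum therefore depends on the markers chosen, and a sum without Calb2 or Drd2 was not tested. Transcripts of other regions moved as well: 9 cerebellar markers summed to 174 to 187, 144 to 148 and 1610 to 1642 CPM, and 7 striatal markers to 1586 to 1631, 903 to 918 and 667 to 677 CPM. All 9 cerebellar markers were called higher at 7 days than in PBS. Gabra6, Fat2 and Cbln3 stood at 0.0861, 0.166 and 0.483 CPM in PBS and 0.0203, 0.407 and 0.701 CPM in LPS at 1 day. At 7 days they stood at 164, 237 and 315 CPM. Every comparison with the 7 day libraries, list genes included, thus sets libraries with these transcripts against libraries nearly without them. The 6 choroid plexus markers, lower at 7 days, summed to 422 to 483, 445 to 463 and 336 to 346 CPM, and the 5 pericyte markers to 207 to 213, 214 to 226 and 298 to 314 CPM. The 8 oligodendrocyte markers summed to 7205 to 7558, 7167 to 7200 and 9596 to 10220 CPM, the 7 astrocyte markers to 4219 to 4311, 4643 to 4656 and 4737 to 4792 CPM, and the 8 endothelial markers to 306 to 317, 340 to 346 and 360 to 371 CPM. At 1 day against PBS 4 endothelial markers were called higher and 4 lower. Of the astrocyte markers 3 were called higher, 2 lower and 2 did not pass. Both sums thus mix markers that moved in opposite directions. Whether fewer cells of a type, less RNA per cell or the extent of the dissected tissue lay behind these differences was not tested in such bulk tissue. The part of these differences in the results below was not tested beyond the rescaling given with them.

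One day after LPS, all 10 genes were higher than in PBS. Each passed the test, against 24.9% of all tested genes that were called higher, and in all 10 the 3 LPS libraries lay above the 3 PBS libraries, which held for 27.4% of all tested genes. The median log2 fold change was 1.07 over the 10 genes and -0.01 over all tested genes. The size varied widely, from 1.14-fold for Tsc22d3 to 6.70-fold for Plin4, and 5 of the 10 more than doubled: Plin4, Cdkn1a, Fkbp5, Zbtb16 and Hif3a. Relative to summed astrocyte or endothelial markers 8 of the 10 were called higher, against 15% and 13.7% of all tested genes on those scales, and Ddit4 and Tsc22d3 lost the call. At 7 days after LPS 8 of the 10 were called lower than in PBS (7 relative to PVT neuron markers, where Errfi1, Tsc22d3 and Zbtb16 turned positive and 7.0% of all tested genes were called lower), against 18.9% of all tested genes, and none was called higher; in 9 of 10 the groups did not overlap, against 22.7% of all tested genes with LPS at 7 days below PBS. The median was -0.47 over the 10 genes and 0.00 over all tested genes. Between 1 and 7 days all 10 fell, against 29.1% of all tested genes, with no overlap in any of the 10 against 31.1% of all tested genes, and the median was -1.78 over the 10 genes and 0.00 over all. The comparisons share libraries, so these counts are not independent of one another. The members were chosen with earlier results of these data known, so the shares over all tested genes give a scale and not a test.

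**Figure D1:**
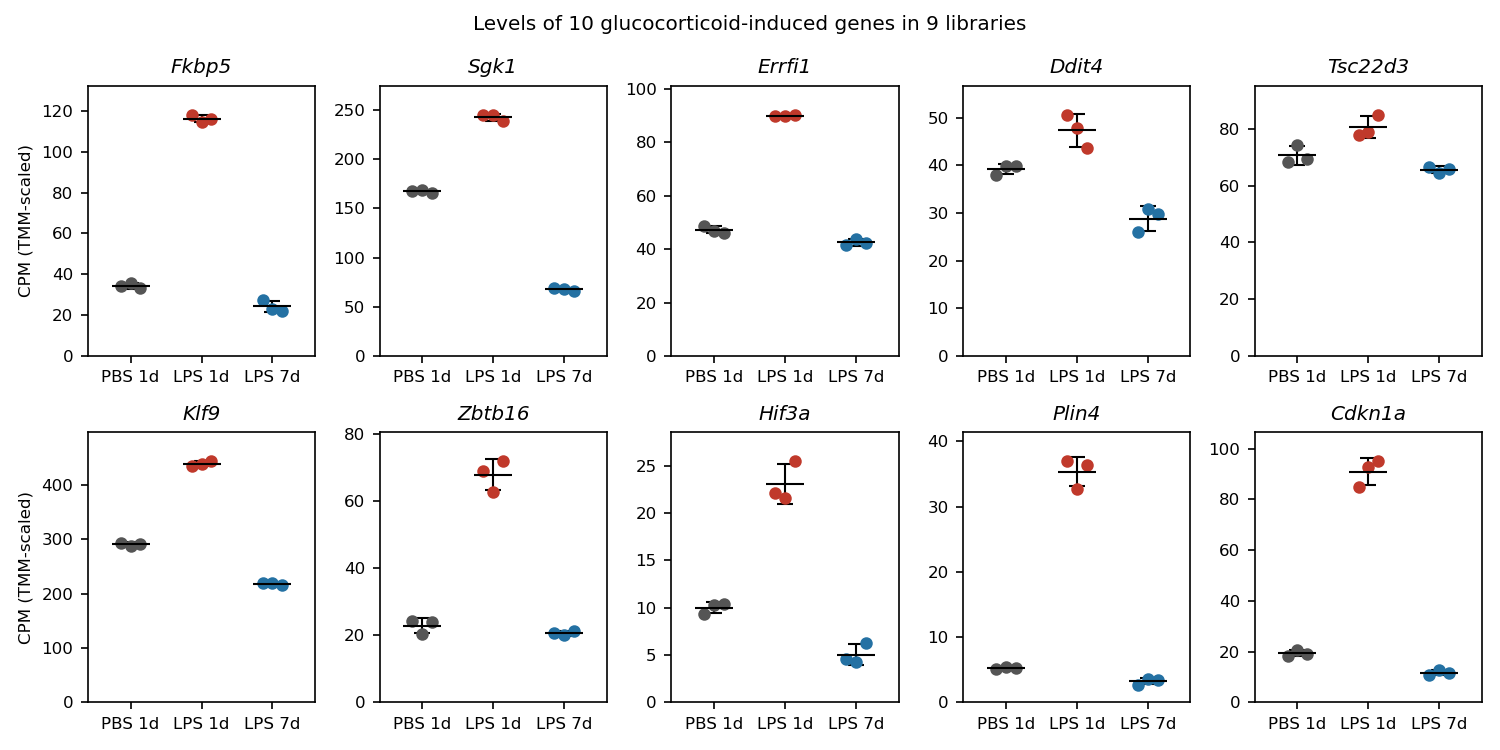
Level of each of the 10 genes in CPM (TMM-scaled, each vertical axis starting at 0) in every library of the PBS 1d, LPS 1d and LPS 7d groups; points are libraries, and bars give the mean and SD of 3. In all 10 panels the LPS 1 day points lie above the other groups, and in all but Zbtb16 the LPS 7 day points also lie below all PBS points on this scale; relative to PVT neuron markers the 7 day difference from PBS turns positive for Errfi1, Tsc22d3 and Zbtb16.

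Fkbp5 encodes a co-chaperone that binds the receptor complex and lowers its affinity for hormone, so that its induction forms a short negative feedback loop. The gene (ENSMUSG00000024222) spans positions 28618068 to 28736501 of chromosome 17 on the minus strand of GRCm39. In PBS its level was 34.1, 35.6 and 33.1 CPM. The LPS libraries held 118, 115 and 116 CPM at 1 day and 27.4, 23.1 and 22.2 CPM at 7 days. The 3 groups were fully separated, with the 1 day libraries far above and the 7 day libraries below PBS. The rise at 1 day was 3.39-fold (95% interval 3.11 to 3.69, log2 1.76 ± 0.06 SE, edgeR adjusted p = 2.39e-29). At 7 days the gene stood at 70.7% of PBS (log2 -0.50 ± 0.07, edgeR adjusted p = 8.54e-08) and at 20.9% of its 1 day level (log2 -2.26 ± 0.06, edgeR adjusted p = 9.36e-34).

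A group of 3 genes acts on kinase and growth signalling. Sgk1, a serum- and glucocorticoid-induced kinase that controls ion channels and transporters, lies on the plus strand of chromosome 10 (ENSMUSG00000019970, 21758083 to 21875802). It stood at 168, 169 and 166 CPM in PBS, at 245, 245 and 239 CPM 1 day after LPS, and at 68.8, 67.8 and 66.3 CPM at 7 days. Libraries of a group lay within a few percent of each other, and the groups were far apart. The 1 day rise was modest at 1.45-fold (95% interval 1.37 to 1.54, edgeR adjusted p = 7.82e-16). By contrast, Sgk1 had the lowest 7 day level relative to PBS of the 10 genes, 40.4% (log2 -1.31 ± 0.04, edgeR adjusted p = 3.39e-30), and only 102 of the 14837 tested genes had a lower fold change in that comparison. This 7 day difference kept its direction and its call under every alternative tried, between -1.73 and -1.08 on the log2 scale. Scaling to striatal or cerebellar markers was not among the alternatives. The striatal markers had a median of -1.31 in the same comparison, and what their change contributes to the Sgk1 value was not tested.

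Sgk1 is also the gene whose promoter carried the fullest match to the receptor's binding sequence, and its upstream bases are shown for that reason. Promoter windows of 300 bases (250 before and 50 after a transcript's start, from RefSeq on GRCm38.p6, an earlier build than that of the count table) were at hand for 9 of the 10 genes, in 18 windows, 6 of them for Sgk1. The 15-letter inverted repeat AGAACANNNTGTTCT, which reads the same on both strands, was found in 1 of the 18 windows and in 3 of all 32851 promoter windows (0.00913%). The match lay 189 to 175 bases before 1 of the Sgk1 starts. The 250 bases upstream of that start, chr10:21993640-21993889 on the plus strand, read as follows with the match in capitals.
Sgk1: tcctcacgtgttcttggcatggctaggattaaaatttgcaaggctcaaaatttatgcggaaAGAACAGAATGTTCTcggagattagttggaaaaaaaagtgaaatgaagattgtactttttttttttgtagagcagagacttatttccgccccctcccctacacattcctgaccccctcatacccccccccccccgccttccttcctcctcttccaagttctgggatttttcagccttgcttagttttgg

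A looser 13-letter form, GNACANNNTGTNC, which the longer repeat contains and which also reads the same on both strands, was found in 0.475% of all windows. Among the 9 genes with a window (Zbtb16 had none) only that Sgk1 window held it. In a list of 30 other glucocorticoid-induced genes, 26 of which had a promoter window, it was found in 5 of 32 windows (15.6%), belonging to Fam107a, Map3k6, Mt1 and Txnip. The stretches around those matches, with the match in capitals, are given for comparison with the Sgk1 site. They lie at chr14:8309875-8309907 on the minus strand (2 windows overlap there), chr4:133240627-133240659, chr8:94178985-94179017 and chr3:96557775-96557807, the last 3 on the plus strand.
Fam107a: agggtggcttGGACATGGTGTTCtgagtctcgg
Map3k6: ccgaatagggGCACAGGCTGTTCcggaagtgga
Mt1: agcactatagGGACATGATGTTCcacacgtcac
Txnip: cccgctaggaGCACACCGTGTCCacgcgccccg
The 6-letter half-site alone, AGAACA or its reverse complement TGTTCT, was present in 19% of all windows. Of the windows of the 9 genes 22.2% held it, in Sgk1 and Tsc22d3. In the list of other glucocorticoid-induced genes it was present in 4 of 32 windows (12.5%), below the share of all windows. The 15-letter repeat was found in 0 of those 32 windows. These are matches of letters within short windows; receptor binding was not measured, and distal elements lie outside the windows.

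Errfi1 encodes a cytoplasmic inhibitor of the EGF receptor family of kinases (ENSMUSG00000028967, chromosome 4, 150938376 to 150953349, plus strand). It stood at 48.6, 47.0 and 46.0 CPM in PBS, at 89.9, 89.8 and 90.3 CPM 1 day after LPS, and at 41.6, 43.8 and 42.2 CPM at 7 days. The 1 day libraries were almost identical to one another and lay well above both other groups. The rise was 1.91-fold (95% interval 1.76 to 2.06, edgeR adjusted p = 1.25e-19), and the fall from 1 to 7 days left 47.3% of the 1 day level (edgeR adjusted p = 1.52e-22). The 7 day level was 90.0% of PBS (95% interval of the ratio 0.829 to 0.978, edgeR adjusted p = 0.0412). This call depended on the settings. Over the alternatives its adjusted p ran from 4.73e-12 to 1, it was lost without PBS replicate 1, 2 or 3, without LPS 1 day replicate 3 and without LPS 7 day replicate 1 or 3 (log2 -0.13, -0.16, -0.16, -0.15, -0.14 and -0.14), and relative to PVT neuron markers the difference turned to 0.07.

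Ddit4 (REDD1), which inhibits the growth-promoting kinase complex mTORC1, lies on the minus strand of chromosome 10 (ENSMUSG00000020108, 59785491 to 59787656). In PBS it was at 38.0, 39.8 and 39.9 CPM. With LPS it was at 50.6, 47.9 and 43.7 CPM at 1 day and at 25.9, 30.7 and 29.8 CPM at 7 days. The groups did not overlap, although LPS 1 day replicate 3 came close to PBS. The 1 day rise of 1.21-fold (95% interval 1.09 to 1.33, edgeR adjusted p = 0.00135) was smaller than the later difference from PBS, a level of 73.5% (log2 -0.44 ± 0.07, edgeR adjusted p = 2.09e-06). The 1 day call was lost relative to astrocyte or endothelial markers and in a test against a fold of 1.5.

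A further 4 genes act in transcription. Tsc22d3 (GILZ), a leucine zipper protein through which glucocorticoids restrain AP-1 and NF-kB, lies on the minus strand of the X chromosome (ENSMUSG00000031431, 139440277 to 139501408). The PBS libraries held 68.3, 74.5 and 69.5 CPM. The LPS libraries held 77.8, 79.0 and 85.0 CPM at 1 day and 66.7, 64.4 and 65.9 CPM at 7 days. The libraries of the groups did not overlap, but the gaps were narrow. The 1 day rise was the smallest of the 10, 1.14-fold (95% interval 1.06 to 1.23, edgeR adjusted p = 0.00318), and its call was lost relative to astrocyte or endothelial markers and against a fold of 1.5. At 7 days the level was 92.9% of PBS and did not pass the test (95% interval of the ratio 0.860 to 1.00, edgeR adjusted p = 0.127). The difference changed sign relative to PVT neuron markers (0.12) and was called lower relative to astrocyte, endothelial or oligodendrocyte markers (-0.27, -0.34 and -0.53). The fall from 1 to 7 days did pass (81.4% of the 1 day level, edgeR adjusted p = 7.04e-06).

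Klf9, a Krüppel-like repressor, had the highest level of the 10 and lies on the plus strand of chromosome 19 (ENSMUSG00000033863, 23118590 to 23145498). It stood at 294, 287 and 292 CPM in PBS, at 436, 439 and 444 CPM 1 day after LPS, and at 220, 219 and 216 CPM at 7 days. Again the groups were widely separated relative to the spread within them. Klf9 rose 1.51-fold at 1 day (95% interval 1.44 to 1.59, edgeR adjusted p = 2.3e-19), and at 7 days it stood at 75.0% of PBS (log2 -0.41 ± 0.04, edgeR adjusted p = 1.29e-13) and 49.7% of its 1 day level.

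Zbtb16 (PLZF), a zinc finger repressor, lies on the minus strand of chromosome 9 (ENSMUSG00000066687, 48565597 to 48747522). It was measured at 24.3, 20.3 and 23.9 CPM in PBS, at 69.0, 62.7 and 71.8 CPM 1 day after LPS, and at 20.5, 19.9 and 21.2 CPM at 7 days. PBS replicate 2 lay within the range of the 7 day libraries, so PBS and LPS at 7 days overlapped, while the 1 day group stood apart. The rise at 1 day was 2.97-fold (95% interval 2.68 to 3.29, edgeR adjusted p = 7.5e-24). A difference from PBS at 7 days did not pass the test (90.1% of PBS, 95% interval of the ratio 0.802 to 1.01, edgeR adjusted p = 0.161, exact two-sided permutation p = 0.3). Without PBS replicate 2 it did (log2 -0.23, edgeR adjusted p = 0.0405). Relative to PVT neuron markers it changed sign (0.07), and relative to astrocyte, endothelial or oligodendrocyte markers it was called lower (-0.31, -0.39 and -0.57).

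Hif3a encodes a hypoxia-inducible factor subunit that can oppose its activating relatives (ENSMUSG00000004328, chromosome 7, 16765432 to 16796352, minus strand). It stood at 9.34, 10.3 and 10.4 CPM in PBS, at 22.1, 21.6 and 25.4 CPM 1 day after LPS, and at 4.60, 4.26 and 6.27 CPM at 7 days. No groups overlapped, and the 7 day libraries varied the most among themselves of any group of the 10 genes (coefficient of variation 21.4%). Hif3a rose 2.31-fold at 1 day (95% interval 1.97 to 2.70, edgeR adjusted p = 8.64e-13) and stood at 50.6% of PBS at 7 days (log2 -0.98 ± 0.14, edgeR adjusted p = 6.26e-08). Along with Sgk1 it was the only member whose 7 day fall from PBS also passed a test against a fold of 1.5.

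Plin4 and Cdkn1a, a coat protein of lipid droplets and the cyclin-dependent kinase inhibitor p21, showed the largest rises. Plin4 (ENSMUSG00000002831, chromosome 17, 56407591 to 56416803, minus strand) stood at 5.11, 5.44 and 5.25 CPM in PBS, at 36.9, 32.8 and 36.4 CPM 1 day after LPS, and at 2.70, 3.64 and 3.43 CPM at 7 days. It was the scarcest of the 10 under PBS per gene length, and the 3 groups were fully separated. Its 6.70-fold rise (95% interval 5.73 to 7.83, edgeR adjusted p = 1.76e-26) was exceeded by 97 of the 14837 tested genes. At 7 days it stood at 61.9% of PBS (log2 -0.69 ± 0.16, edgeR adjusted p = 0.000375) and 9.24% of its 1 day level (edgeR adjusted p = 1.2e-29). The annotated end of Hdgfl2 on the opposite strand reaches into the last bases of Plin4 (to position 56407607); whether the counting used strand is not stated, so reads in that short overlap cannot be assigned.

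Cdkn1a (ENSMUSG00000023067, chromosome 17, 29309950 to 29319701, plus strand) lies 573 kb from Fkbp5. It stood at 18.3, 20.7 and 19.1 CPM in PBS, at 84.9, 92.7 and 94.9 CPM 1 day after LPS, and at 10.9, 12.9 and 11.4 CPM at 7 days. Every 1 day library was several times above every other library, and every 7 day library was below PBS. The rise was 4.70-fold (95% interval 4.26 to 5.20, edgeR adjusted p = 7.05e-31). At 7 days the gene stood at 60.7% of PBS (log2 -0.72 ± 0.09, edgeR adjusted p = 4e-09) and at 12.9% of its 1 day level (edgeR adjusted p = 2.04e-35).

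**Figure D2:**
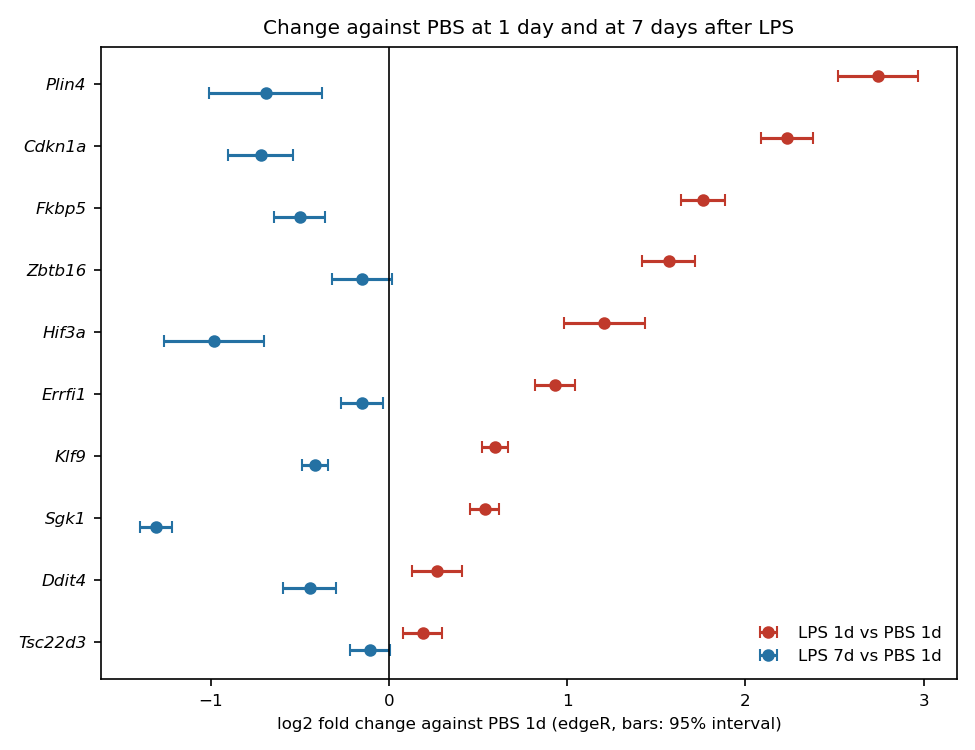
Log2 fold change against PBS for LPS at 1 day and LPS at 7 days, with 95% intervals from edgeR, genes ordered by the 1 day value. All 1 day values are above 0, from 0.19 for Tsc22d3 to 2.74 for Plin4, and all 7 day values are below 0, with the intervals of Tsc22d3 and Zbtb16 reaching past 0; both comparisons use the same PBS libraries, and relative to PVT neuron markers the 7 day values of Errfi1, Tsc22d3 and Zbtb16 turn positive.

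The order of the genes by size of change differed between the 2 time points. Sgk1 had a smaller rise at 1 day than 7 of the other genes but the lowest 7 day level relative to PBS. Zbtb16 was among the 5 that more than doubled at 1 day, yet its 7 day difference from PBS did not pass the test. Ddit4 rose by 0.27 on the log2 scale and lay 0.44 below PBS at 7 days. Both time points share the PBS libraries, so the values are given side by side and no relation between them was tested.

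Levels between genes were compared per gene length, as the deposited FPKM (fragments scaled to gene length and library total). Under PBS the order ran from Klf9 at 60.1 FPKM through Sgk1 (34.0), Ddit4 (22.2), Tsc22d3 (16.2), Errfi1 (13.1), Cdkn1a (5.42), Zbtb16 (4.30), Fkbp5 (3.60) and Hif3a (1.48) to Plin4 at 0.825 FPKM, and no neighbours in this order overlapped. One day after LPS Cdkn1a moved above Errfi1 and Tsc22d3 in this order, at 25.1 FPKM. There it overlapped with both its neighbours, Ddit4 (26.5 FPKM) and Errfi1 (24.7 FPKM), and Zbtb16 (12.6 FPKM) overlapped with Fkbp5 (12.1 FPKM). Plin4 passed Hif3a at 1 day, with 5.47 against 3.37 FPKM. At 7 days Sgk1 dropped to 14.1 FPKM, below Ddit4 (16.8 FPKM) and Tsc22d3 (15.5 FPKM), which overlapped with each other. Klf9 was the most abundant of the 10 in all 3 groups, at 89.7 FPKM at 1 day and 46.4 FPKM at 7 days.

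**Figure D3:**
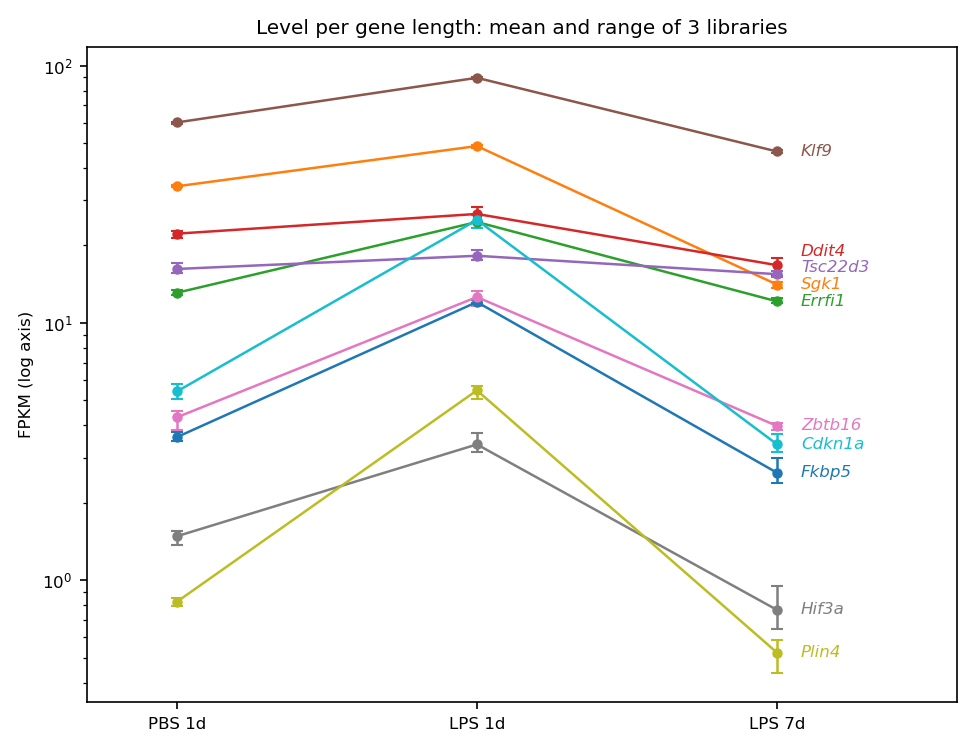
Level per gene length (FPKM, log axis) of the 10 genes in the 3 groups; points are means of 3 libraries and bars run from the lowest to the highest library. The lines cross where the order changes: Cdkn1a and Plin4 move up at 1 day, and Sgk1 moves down at 7 days from 34.0 FPKM in PBS to 14.1 FPKM.

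Other genes known to be induced by glucocorticoids were read from a list of 30, of which 29 were tested (Mt2 had no count in any library). Such genes can respond to other signals too, and which signal moved them here was not tested. This list, too, was chosen with earlier results of these data known. One day after LPS 26 of the 29 were higher than in PBS, 1 was lower and 2 did not pass, with a median log2 fold change of 0.49. Of all tested genes, 24.9% were called higher and 24.2% lower at 1 day. Mt1, a metal-binding metallothionein, rose by 1.44 ± 0.07 (edgeR adjusted p = 1.5e-24), and Fam107a, an actin-binding protein of stress responses, by 1.04 ± 0.04 (edgeR adjusted p = 1.33e-26). The exception was Dusp1, a phosphatase of MAP kinases, which fell by 0.35 (edgeR adjusted p = 2.24e-06). At 7 days 14 of the 29 were lower than PBS, 5 were higher and 10 did not pass, with a median of -0.20 that moved to 0.02 relative to PVT neuron markers. Of all tested genes, 18.9% were called lower and 16.8% higher than PBS at 7 days. The clock gene Per1 stood at -0.67 ± 0.04 (edgeR adjusted p = 6.98e-18) and Pdk4, an inhibitor of pyruvate oxidation, at -0.96 ± 0.11 (edgeR adjusted p = 1.35e-10). In the other direction, Fam107a was still 0.46 ± 0.04 above PBS (edgeR adjusted p = 3.54e-13) and Slc38a2, an amino acid transporter, 0.45 ± 0.04 above it (edgeR adjusted p = 6.49e-13). From 1 to 7 days 25 of the 29 fell, none rose and 4 did not pass (median -0.90). Of all tested genes, 29.1% fell and 27.5% rose between these days. The kinase gene Map3k6 fell by 3.36 on the log2 scale (edgeR adjusted p = 1.03e-25) and Per1 by 1.29 (edgeR adjusted p = 5.83e-30).

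The receptor and the proteins that handle it or its hormone did not move in 1 direction. The glucocorticoid receptor gene itself, Nr3c1, stood at 109 CPM in PBS, and after LPS at 109 CPM (1 day) and 98.2 CPM (7 days). Its 1 day difference was 0.00 ± 0.05 (edgeR adjusted p = 0.953), and at 7 days it was -0.15 ± 0.05 (edgeR adjusted p = 0.0188), a fall that turned positive relative to PVT neuron markers. Of 16 tested genes in this list (Hsd11b2 was too scarce), 6 rose, 5 fell and 5 did not pass at 1 day (median 0.04). The shares over all tested genes were 24.9% higher and 24.2% lower. The coregulators Nrip1 and Ncoa1 rose by 0.52 ± 0.06 and 0.34 ± 0.04 (edgeR adjusted p = 6.18e-10 and 2.62e-09). Fkbp4, the co-chaperone that competes with the Fkbp5 product and favours receptor transport, fell by 0.36 (edgeR adjusted p = 2.36e-09), and Abcb1a, an efflux pump of the blood-brain barrier, fell by 0.61 (edgeR adjusted p = 8.75e-09). At 7 days 5 were higher than PBS, 5 lower and 6 did not pass (median -0.03), beside 16.8% of all tested genes called higher and 18.9% lower. Relative to PVT neuron markers all 5 lower ones, Nr3c1, Ncoa1 and Ncor1 among them, turned positive. Before that rescaling Ncoa1 and the corepressor Ncor1 were at -0.19 ± 0.04 and -0.13 ± 0.04 at 7 days (edgeR adjusted p = 0.0004 and 0.00913). Hsd11b1, whose enzyme regenerates active hormone inside cells, stood at 6.97 CPM in PBS, 8.01 CPM at 1 day and 17.1 CPM at 7 days, a rise of 1.29 ± 0.13 over PBS at 7 days (edgeR adjusted p = 1.34e-11). The chaperone Hspa8 was 0.52 ± 0.03 higher at 7 days (edgeR adjusted p = 9.36e-19), and Fkbp4 was 0.39 ± 0.04 higher (edgeR adjusted p = 6.87e-11) but turned lower relative to oligodendrocyte markers. From 1 to 7 days 7 rose, 8 fell and 1 did not pass (median -0.10), beside 27.5% of all tested genes that rose and 29.1% that fell. In that comparison Hspa8 and Fkbp4 were at 0.70 ± 0.03 and 0.75 ± 0.04, and Ncoa1 and Nrip1 at -0.53 ± 0.04 and -0.51 ± 0.06.

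Close relatives of the 10 genes were less uniform. The list read for this also held Erbb2, which is no paralog but a kinase of the family that Errfi1 inhibits. It shared Klf15 and Fkbp4 with the 2 lists above. Of its 19 tested genes (Plin1 was too scarce), 8 rose, 4 fell and 7 did not pass at 1 day (median 0.15). The shares over all tested genes were 24.9% higher and 24.2% lower. Sgk3 rose by 0.81 ± 0.09 (edgeR adjusted p = 3.93e-10) and Klf13 by 0.28 ± 0.04 (edgeR adjusted p = 2.11e-07), in the direction of Sgk1 and Klf9. Ddit4l, the paralog of Ddit4, fell by 1.03 at 1 day (edgeR adjusted p = 4.89e-08), opposite to Ddit4, and stood at -1.14 ± 0.14 against PBS at 7 days (edgeR adjusted p = 4.1e-09). At 7 days 7 genes of this list were higher than PBS, 5 lower and 7 did not pass (median 0.04, and -0.38 relative to oligodendrocyte markers). Over all tested genes 16.8% were called higher and 18.9% lower. Cdkn1b, the p27 relative of Cdkn1a, was 0.43 ± 0.07 higher (edgeR adjusted p = 3.71e-07), opposite to Cdkn1a, and Klf10 was at -0.36 ± 0.09 (edgeR adjusted p = 0.000662). Relative to oligodendrocyte markers the 7 day values against PBS shifted by -0.42, about as much as the Cdkn1b difference. From 1 to 7 days 3 rose, 5 fell and 11 did not pass (median -0.05), beside 27.5% of all tested genes that rose and 29.1% that fell. The lipid droplet relative Plin3 rose by 0.71 ± 0.09 (edgeR adjusted p = 7.06e-09), opposite to Plin4, while Sgk3 and Klf15 fell by 1.24 and 0.72 (edgeR adjusted p = 9.6e-16 and 1.94e-12).

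**Figure D4:**
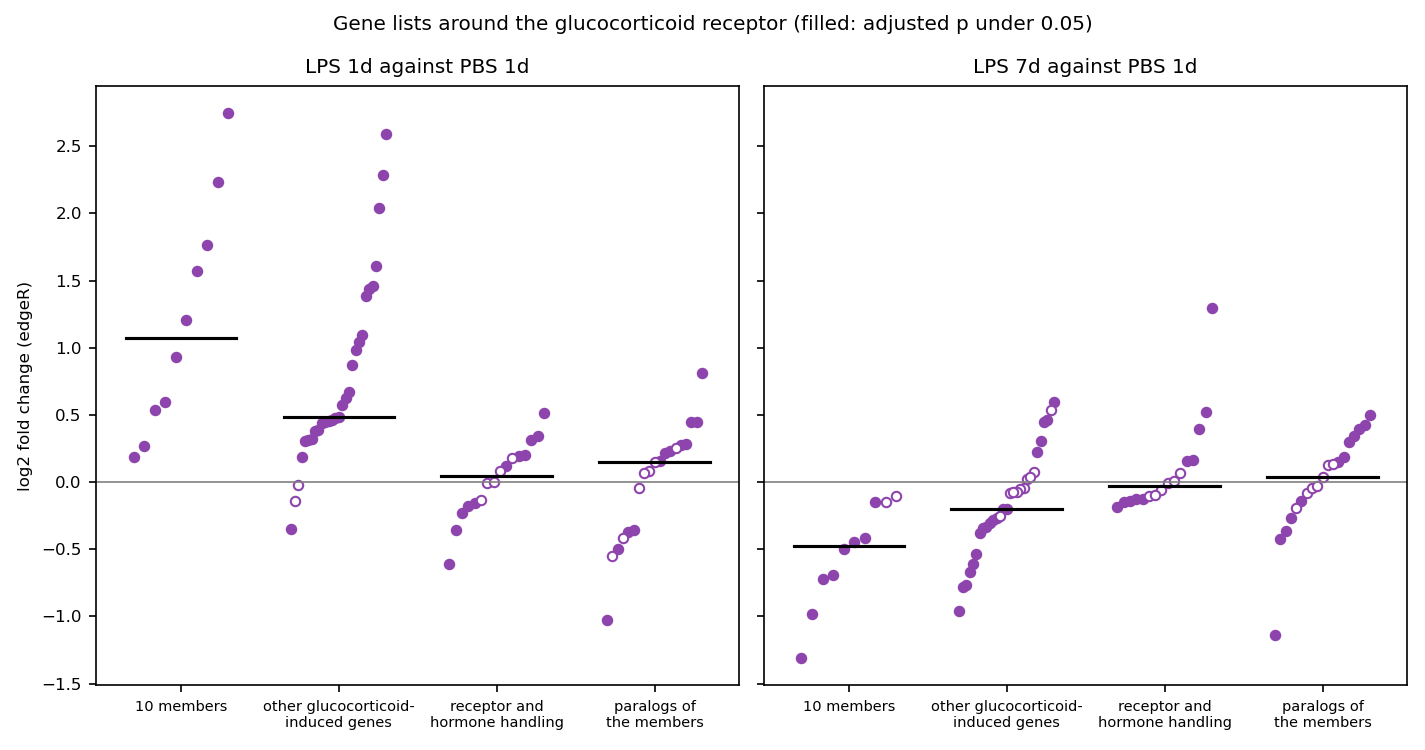
Log2 fold change of each tested gene in 4 lists (the 10 genes, 29 other glucocorticoid-induced genes, 16 genes of the receptor and its hormone, 19 genes of the paralog list, which includes Erbb2) for LPS at 1 day and LPS at 7 days against PBS. Klf15 and Fkbp4 each appear in 2 lists. Filled points have an edgeR adjusted p under 0.05 and black lines are list medians. The medians at 1 day are 1.07, 0.49, 0.04 and 0.15, and at 7 days -0.47, -0.20, -0.03 and 0.04; relative to PVT neuron markers the 7 day medians of the other glucocorticoid-induced genes and of the receptor list turn positive, relative to oligodendrocyte, astrocyte or endothelial markers the 7 day median of the paralogs turns negative, and relative to astrocyte or endothelial markers so does the 1 day median of the receptor list.

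The genes with the profile nearest to that of Fkbp5 were sought among all tested genes, by the Euclidean distance between log2 CPM across the 9 libraries after subtracting the PBS mean. Outside the 10 genes the nearest were Gbp3 (distance 0.419), Slc15a3 (0.499), Ddx58 (0.592), Parp14 (0.601) and Lbp (0.664). Gbp3, an interferon-induced GTPase, stood at 7.89 ± 0.20 CPM in PBS, and after LPS at 29.6 ± 2.30 CPM (1 day) and 5.75 ± 0.20 CPM (7 days), as mean ± SD of 3 libraries. Among the 10 genes, Zbtb16 (distance 0.802) and Cdkn1a (0.971) were nearest to Fkbp5, and Tsc22d3 (2.82) was the farthest. All 5 genes named above lay closer to Fkbp5 than any of the other 9 members did. They were picked as the nearest of all tested genes and the members were not, so no conclusion is drawn from this.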

How the data were processed

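For each of 9 libraries the deposited table held counts and FPKM per gene. Trizol-extracted RNA and a TruSeq kit were used, per the labels' protocols. TopHat2, HISAT2, HTSeq and GRCm39 are named in the submitters' processing notes, without versions or roles, and strandedness is not given there. The authors made the count values by counting aligned reads per gene and scaled FPKM by gene length and library total; recomputing the deposited FPKM from the counts differed by at most 1.6e-07 (relative). The deposited length, position and strand columns hold other values and were used unchanged; coordinates are 1-based GRCm39.

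Counts were fitted with edgeR 4.0.16 (R 4.3.3): filterByExpr, TMM factors (0.983 to 1.031), 1 mean per group over all 9 libraries, quasi-likelihood F tests of 3 contrasts, two-sided, with Benjamini-Hochberg adjustment over 14837 genes. The common biological coefficient of variation was 4.15%, with 6 residual and 43.4 prior degrees of freedom. The SE is the log2 fold change divided by the square root of F. Pairs of libraries within a group had a chi-square of 2.01 to 3.62 for each degree of freedom, more than counting noise gives, and an exact permutation test of 3 against 3 cannot go below p = 0.1. Intervals assume the fitted spread between libraries.

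The members and lists were chosen with earlier results of these data known. Named beside the 10 members are, per list, up to 2 genes per direction and comparison with the smallest p, and the 5 genes nearest to Fkbp5; Nr3c1 and genes whose sign turned were named in addition after their values were seen. Alternatives were RLE, upper-quartile and library-total scaling, no filter, DESeq2 1.42.0, limma-voom (limma 3.58.1), a test against a fold of 1.5, only the groups compared, the replicate number as a block and leaving out each library; scaling to summed marker counts was added after seeing the data. Replicate numbers of the labels did not pair the samples.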

Additional observations from a re-analysis of the deposited data

Results flagged for a closer look

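For 8 of the 10 genes the effect against the same PBS libraries had opposite signs at 1 and at 7 days, each passing its edgeR test, and the difference between the time points, tested as LPS at 7 days against LPS at 1 day in the same fit, passed as well. Of all tested genes, 4.08% were called higher at 1 day and lower at 7 days against PBS; both comparisons share the PBS libraries. The difference on the log2 scale was -3.44 for Plin4, -2.95 for Cdkn1a, -2.26 for Fkbp5, -2.19 for Hif3a, -1.84 for Sgk1, -1.08 for Errfi1, -1.01 for Klf9 and -0.71 for Ddit4. Both LPS groups held Y-linked transcripts. From 1 to 7 days all 9 cerebellar and all 8 oligodendrocyte markers rose, while 5 of 6 choroid plexus markers and 5 of 7 striatal markers fell (median -1.21 and -0.37); the part of these differences was not tested. For Errfi1 the opposite sign at 7 days rests on a call that was lost under 13 of 22 alternatives and turned positive under 1.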

How the results depend on the processing

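Over the alternatives other than scaling to markers, 515 of the values of single members kept direction and side of the threshold, 24 lost the call, 1 gained it and none reversed. Under the test against a fold of 1.5 the genes called fell to 6 of the 10 at 1 day and 2 at 7 days against PBS, and over all genes to 647, 539 and 1256 (1 day, 7 days against PBS, 7 days against 1 day); this test asks for a larger change by construction. With the replicate block 10, 7 and 10 of the 10 genes were called, with Errfi1 at 7 days losing its call (edgeR adjusted p = 0.0559) and no other call of the 10 genes changed; same-numbered samples had correlations of -0.02 to 0.03 and best matched their own number in 4 of 9 cases. Leaving out single libraries gave 10 of 10 at 1 day, 7 to 8 at 7 days against PBS and 10 between the time points. Scaling by library totals alone moved the split of all calls at 7 days against PBS from 2489 higher and 2798 lower to 3183 and 2326, and at 7 days against 1 day from 4076 and 4323 to 4867 and 3680, with the median of all genes shifted by at most 0.06. Scaling to PVT neuron markers, added after seeing the data, shifted every log2 value by 0.33 at 1 day and 0.22 at 7 days against PBS, which reversed Errfi1 (0.072), Tsc22d3 (0.116) and Zbtb16 (0.073) at 7 days. Scaling to astrocyte, endothelial and oligodendrocyte markers shifted the 7 day values against PBS by -0.16, -0.23 and -0.42. All 10 genes were then called lower at 7 days, as were 40.6%, 52.1% and 72.6% of all tested genes, and 8, 8 and 10 were called higher at 1 day, beside 15%, 13.7% and 28.2%. Over all genes the calls at 7 days against PBS came to 8671 relative to PVT neuron, 8634 to endothelial and 11290 to oligodendrocyte markers, since the scaling moves every gene one way. The order of levels kept all 30 positions on the TMM scale per kilobase. That scale differs from FPKM only by a factor per library, so the order could hardly change. Depth limits the scarcest gene most: Plin4 had 44 to 59 counts per library at 7 days.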

Other observations

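Some of the 10 genes are shared with other stress pathways, and 3 lists of those pathways were read beside them. Of 13 tested p53 targets other than Cdkn1a, 6 rose, 3 fell and 4 did not pass at 1 day (median log2 fold change 0.24). Over all tested genes 24.9% were called higher and 24.2% lower at 1 day. Trp53inp1, a p53-induced regulator of autophagy and cell death, rose by 1.37 ± 0.09 and Sesn2, a stress-induced inhibitor of mTORC1, by 0.79 ± 0.09 (edgeR adjusted p = 1.44e-18 and 1.15e-10). Zmat3 and Btg2 were at -0.24 ± 0.05 and -0.37 ± 0.10 (edgeR adjusted p = 4.1e-05 and 0.00173), and Zmat3 turned positive relative to PVT neuron markers. At 7 days 2 p53 targets were higher than PBS, 2 lower and 9 did not pass (median -0.03), beside 16.8% and 18.9% of all tested genes called higher and lower. The kinase gene Plk2 was at -0.76 ± 0.05 (edgeR adjusted p = 2.21e-19).

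Of 14 hypoxia targets, which bear on Hif3a and Ddit4, 3 rose, 5 fell and 6 did not pass at 1 day (median -0.02). Over all tested genes 24.9% were called higher and 24.2% lower at 1 day. Pfkfb3, a regulator of glycolysis, and Kdm3a, a histone demethylase, rose by 0.53 ± 0.06 and 0.46 ± 0.06, while the growth factor Vegfa and the collagen hydroxylase subunit P4ha1 were at -0.66 ± 0.06 and -0.70 ± 0.06 (edgeR adjusted p = 1.03e-09, 1.99e-09, 3.36e-14 and 2.69e-13). At 7 days 2 were higher than PBS, 5 lower and 7 did not pass, beside 16.8% and 18.9% of all tested genes called higher and lower. The carbonic anhydrase genes Car12 and Car9 were at -1.11 ± 0.08 and 1.71 ± 0.32 (edgeR adjusted p = 6.27e-18 and 1.6e-05), and Slc2a1, a glucose transporter, was at -0.25 ± 0.04 (edgeR adjusted p = 1.15e-05). Vegfa was then at 0.22 ± 0.05 (edgeR adjusted p = 0.000519, lower relative to endothelial or oligodendrocyte markers). Of 13 targets of the integrated stress response, 9 rose, none fell and 4 did not pass at 1 day (median 0.26), against the same 24.9% and 24.2% of all tested genes. Ppp1r15a, which ends that response, was at 0.99 ± 0.10 (edgeR adjusted p = 1.61e-12). At 7 days none of the 13 passed in either direction in edgeR, against the same 16.8% and 18.9% of all tested genes.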
